A study of Mus musculus with 4 samples.

Results

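The EGF receptor system of mouse small intestinal organoids was described through 10 genes, chosen by symbol from the 22632 genes of the deposited expression table. They are the ligand genes Areg, Ereg, Hbegf, Btc, Tgfa, Epgn and Egf and the receptor genes Egfr, Erbb2 and Erbb3. Organoids are epithelial cultures grown from isolated crypts, and RNA was sequenced 24 hours after crypts were seeded. There were 4 libraries, with 1 library per group. Yap-/- organoids came from Yapfl/fl;VillinCre mice, in which Cre under the Villin promoter removes both floxed copies of Yap1 in the intestinal epithelium. Yap+/- organoids came from Yap+/fl;VillinCre mice, which carry the same Cre and keep 1 copy. In YapTg organoids a wild-type Yap transgene stood under a doxycycline-responsive transactivator that depends on Cre, and the cultures were grown with doxycycline, labelled at 1.5 mg/ml and given from seeding, or without it. The promoter that drives Cre in YapTg mice, the strain, the age and the number of mice or cultures pooled per library were not given in the sources used here. All groups grew in medium with recombinant mouse Egf, Noggin and R-spondin 1, so receptor ligand was supplied from outside in every library.

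EGF receptor ligands are made as membrane-anchored precursors, and proteases of the ADAM family release them from the cell surface. A released ligand binds EGFR, which pairs with itself or with ERBB2 or ERBB3 and signals through RAS and the ERK kinases. In the crypt, EGF receptor signalling is known to drive the division of stem and progenitor cells, which is why organoid medium contains EGF. ERBB2 has no known ligand of its own, and ERBB3 binds neuregulins and has little kinase activity.

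The libraries held between 44934170 reads (YapTg without doxycycline) and 75269003 reads (YapTg with doxycycline), recovered from the values. Levels are in RPKM, which divides reads by gene length and by the total of the library. Yap1 was at 3.35 RPKM in Yap-/- organoids against 16.7 RPKM in Yap+/- organoids, and at 1039 RPKM with and 25.1 RPKM without doxycycline. The epithelial markers Epcam, Cdh1, Krt8, Krt18 and Krt19 were all above 1 RPKM in every library. The stromal genes Col3a1 and Dcn were listed at 0 in all 4 libraries. The summed level of 6 stromal markers was between 0.391 and 3.46 RPKM, most of it from Vim. Vim was at 3.46 RPKM in Yap-/- against 3.39 RPKM in Yap+/- organoids, and at 0.381 RPKM with and 2.26 RPKM without doxycycline. The 6 immune markers summed to between 3.83 and 7.71 RPKM. Of these, Cd52 was at 2.51 RPKM in Yap-/- against 2.09 RPKM in Yap+/- organoids, and at 5.76 RPKM with and 2.79 RPKM without doxycycline. No difference between groups has a replicate check, and no p-value was computed. The intervals below are exact binomial 95% intervals from recovered reads and cover counting error only. In whole organoids, fewer cells of a type and less RNA per cell cannot be told apart. No library had doxycycline but lacked the transgene, so the drug and the transgene cannot be told apart.

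The windows around the start sites of 3 members are shown because Areg passed 2-fold in both comparisons, Egfr passed it with induction, and Erbb2 differed little. Sequences are from RefSeq on GRCm38.p6, from 250 bases before to 50 bases after the start site, all on the plus strand. Capitals mark the cyclic AMP response element in the Areg window and a TEAD motif in the Erbb2 window.
Areg (chr5:91139349-91139648): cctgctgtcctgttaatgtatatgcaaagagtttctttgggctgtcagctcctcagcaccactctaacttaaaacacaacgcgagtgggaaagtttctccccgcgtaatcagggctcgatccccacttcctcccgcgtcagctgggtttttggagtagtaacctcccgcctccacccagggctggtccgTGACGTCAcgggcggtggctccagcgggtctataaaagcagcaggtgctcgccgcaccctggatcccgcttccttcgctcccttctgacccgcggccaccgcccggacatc
Egfr (chr11:16751953-16752252): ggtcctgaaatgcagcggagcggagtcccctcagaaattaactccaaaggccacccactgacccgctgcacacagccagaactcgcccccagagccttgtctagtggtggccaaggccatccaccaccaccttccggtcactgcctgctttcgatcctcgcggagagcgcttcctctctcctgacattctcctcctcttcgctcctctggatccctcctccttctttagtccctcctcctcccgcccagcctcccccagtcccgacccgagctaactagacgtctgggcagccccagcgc
Erbb2 (chr11:98412234-98412533): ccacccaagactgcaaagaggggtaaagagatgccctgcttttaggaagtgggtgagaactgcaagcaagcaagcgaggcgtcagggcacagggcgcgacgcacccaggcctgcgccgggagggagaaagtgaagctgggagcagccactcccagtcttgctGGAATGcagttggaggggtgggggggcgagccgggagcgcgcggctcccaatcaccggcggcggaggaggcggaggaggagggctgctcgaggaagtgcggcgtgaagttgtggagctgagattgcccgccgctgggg

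TEAD factors are the DNA-binding partners of YAP. The TEAD letters GGAATG, read on either strand, were in 1 of the 8 windows held for the members, the one of Erbb2, with the first base 88 bases before the start site. They were in 14.7% of all 32851 windows of the same length. The AP-1 letters TGANTCA were in 0 of the 8 windows and in 7.81% of all windows. The 8 windows belong to 7 members, since Egf has 2 windows. Ereg, Hbegf and Erbb3 were not searched. The letters TGACGTC or GACGTCA, the core of a cyclic AMP response element, were chosen after the Areg window had been read. They overlap in that window, begin 61 bases before the start site and were in 3.21% of all windows. A match or its absence in 300 bases is a description of these letters and says nothing on whether a factor binds.

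Areg was by far the most abundant ligand transcript, and it was lowest without Yap and highest with induction. It encodes amphiregulin, a ligand that needs shedding and binds heparin. Areg was at 22.7 RPKM in Yap-/- organoids against 50.9 RPKM in Yap+/- organoids, and at 121 RPKM with and 40.9 RPKM without doxycycline. The Yap+/- and uninduced libraries lay between these ends. Areg was 2.24-fold lower without Yap (95% interval 2.12 to 2.38). With induction it was 2.96-fold higher (95% interval 2.82 to 3.10). By log2 ratio of RPKM plus 1, Areg had rank 46 from the lowest of 10710 genes without Yap, and rank 339 from the highest of 11108 genes with induction.

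Ereg, which encodes epiregulin, a ligand of EGFR and ERBB4, lay at a lower level and was also lowest without Yap and highest with induction. It was at 1.92 RPKM in Yap-/- organoids against 3.69 RPKM in Yap+/- organoids, and at 13.3 RPKM with and 5.05 RPKM without doxycycline. It was 1.92-fold lower without Yap (95% interval 1.72 to 2.14) and 2.64-fold higher with induction (2.46 to 2.84). An antisense gene, Gm19610, shares 141 bases of exon with Ereg in the GENCODE M21 annotation. Also on the opposite strand, Gm43917 shares 118 bases of exon with Tgfa, and Mien1 shares 9 bases with Erbb2. No strand setting is given in the sources used here.

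Hbegf, which encodes heparin-binding EGF-like growth factor, had the largest ratio of the 10 genes under induction. It was at 1.82 RPKM in Yap-/- organoids against 3.26 RPKM in Yap+/- organoids, and at 19.0 RPKM with and 3.70 RPKM without doxycycline. The induced library stood above the other libraries, which all lay below 4 RPKM. Hbegf was 5.15-fold higher with induction (95% interval 4.78 to 5.55) and 1.80-fold lower without Yap (1.62 to 2.00). It passed Tgfa, Btc and Ereg in the induced library, where it was the second ligand after Areg. In the other libraries it was the fifth.

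Btc encodes betacellulin, a ligand of EGFR and ERBB4. It was at 3.97 RPKM in Yap-/- organoids against 6.73 RPKM in Yap+/- organoids, and at 10.1 RPKM with and 5.89 RPKM without doxycycline. It was 1.69-fold lower without Yap (95% interval 1.59 to 1.81) and 1.72-fold higher with induction (1.62 to 1.83), below 2-fold both times. Tgfa encodes transforming growth factor alpha, which binds EGFR and is known as a product of Paneth cells. Tgfa stood apart from the ligands above, since it did not differ with loss of Yap beyond counting error. It was at 8.41 RPKM in Yap-/- organoids against 8.39 RPKM in Yap+/- organoids, a ratio of 1.00 (95% interval 0.959 to 1.05), and at 12.5 RPKM with and 8.22 RPKM without doxycycline, 1.52-fold higher (1.46 to 1.59). The summed level of 6 Paneth cell markers was 9475 RPKM in Yap-/- organoids against 4744 RPKM in Yap+/- organoids, and 7726 RPKM with and 11724 RPKM without doxycycline. Its part in the levels of Tgfa was not tested.

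Egf and Epgn were nearly silent, below 1 RPKM in every library. Egf, the gene of the ligand that the medium supplies as protein, was at 0.111 RPKM in Yap-/- organoids against 0.0955 RPKM in Yap+/- organoids, and at 0.433 RPKM with and 0.205 RPKM without doxycycline. The ratio was 1.16 without Yap (95% interval 0.804 to 1.70) and 2.12 with induction (1.67 to 2.71). The antisense genes Gm42697 and 6330410L21Rik share 607 and 500 bases of exon with Egf, so at this level its reads are not assigned with confidence. Epgn encodes epigen, a low-affinity ligand. It had 6 reads in Yap-/- and 41 reads in Yap+/- organoids, and 7 reads with and 2 reads without doxycycline. The Yap+/- library was thus the high one, and the ratio without Yap, 8.13-fold lower, has a wide 95% interval of 3.43 to 23.4. Against the uninduced YapTg library the Yap+/- library was 16.2-fold higher (95% interval 4.20 to 138) for Epgn, so a gap of that kind also lay between libraries with neither full loss nor induction.

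**Figure D1:**
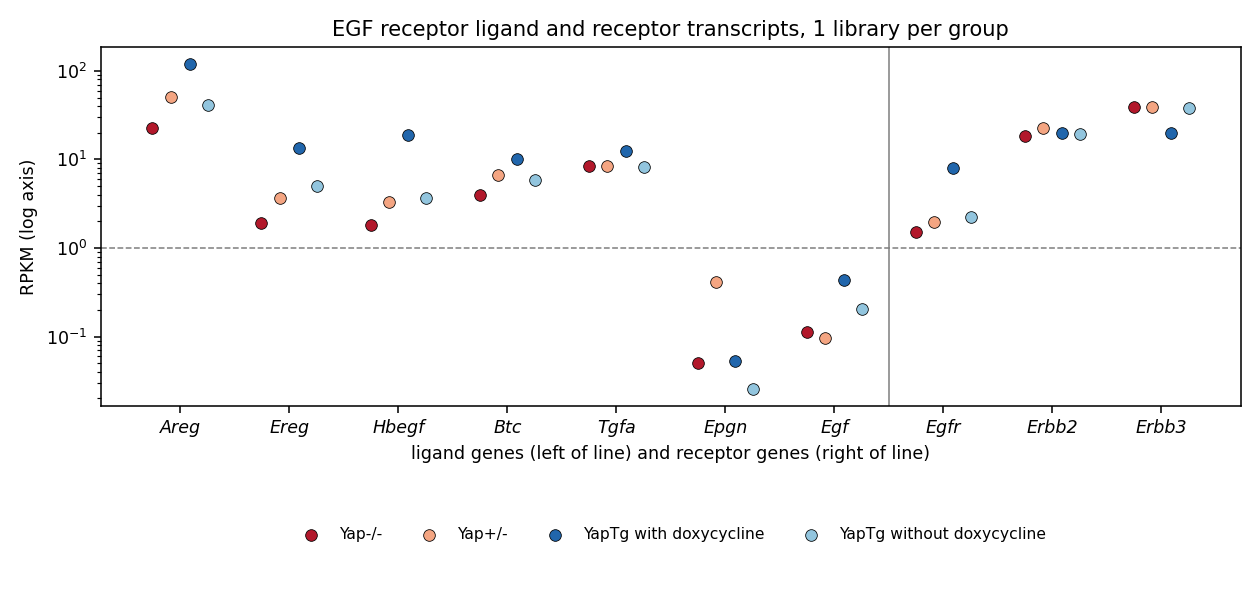
Level of each ligand and receptor transcript in RPKM on a log axis, with 1 point per library and no error bar since each group is 1 library; the dashed line is 1 RPKM. Areg is the highest ligand in all 4 libraries, Epgn and Egf stay below the line, and Egfr is the lowest of the 3 receptors in each library.

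The receptors differed from each other in direction with induction. Egfr, the receptor that binds all 7 ligands, was at 1.53 RPKM in Yap-/- organoids against 1.96 RPKM in Yap+/- organoids, and at 8.09 RPKM with and 2.25 RPKM without doxycycline. It was low in the libraries without induction and was 3.59-fold higher with induction (95% interval 3.38 to 3.83). Without Yap it was 1.28-fold lower (1.18 to 1.38). Erbb2, the receptor that acts as a partner, was at 18.3 RPKM in Yap-/- organoids against 22.7 RPKM in Yap+/- organoids, and at 19.8 RPKM with and 19.5 RPKM without doxycycline. Its ratio with induction was 1.01 (95% interval 0.975 to 1.05), and it was 1.24-fold lower without Yap (1.20 to 1.29).

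Erbb3, the most abundant receptor transcript, went the other way under induction. It was at 39.3 RPKM in Yap-/- organoids against 38.9 RPKM in Yap+/- organoids, and at 20.0 RPKM with and 37.9 RPKM without doxycycline. The induced library alone was low, 1.89-fold below the uninduced one (95% interval 1.84 to 1.95), while the ratio without Yap was 1.01 (0.989 to 1.04). The summed level of 6 goblet cell markers was 555 RPKM with and 2151 RPKM without doxycycline, that of 6 enteroendocrine markers 47.8 RPKM with and 120 RPKM without, and that of 6 stem cell markers 55.3 RPKM with and 533 RPKM without. At least 2-fold lower were 6 of 6 goblet, 6 of 6 enteroendocrine and 5 of 6 stem cell markers. The 6 enterocyte markers summed to 1420 RPKM with and 4510 RPKM without doxycycline, where Fabp1, Sis and Rbp2 were at least 2-fold lower and Apoa1, Alpi and Vil1 had ratios from 0.938 to 0.953. Their part in the level of Erbb3 was not tested. Of the 5 epithelial markers, Epcam was at 335 RPKM with and 372 RPKM without doxycycline, while the keratin genes Krt8, Krt18 and Krt19 were 2.95-fold to 5.18-fold higher.

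A gene was counted as 2-fold different when the log2 ratio of RPKM plus 1 reached 1 in size and the higher library reached 1 RPKM. Of the 10 members, 8 reached that level in each comparison, and Epgn and Egf did not. Without Yap, 1 member, Areg, was at least 2-fold lower and 0 were higher. Among all 10710 genes at that level, 0.57% were at least 2-fold lower and 0.336% at least 2-fold higher. With induction 4 members were at least 2-fold higher (Areg, Ereg, Hbegf and Egfr) and 0 were lower, against 5.85% and 5.8% of 11108 genes. With a pseudocount of 5 the log2 ratios of Ereg and Egfr were 0.87 and 0.85, below 2-fold, which left 2 members. At a 1.5-fold threshold 4 members were lower without Yap, with 1.57% of all genes, and 0 higher, with 1.34%. With induction 5 were higher and 1, Erbb3, was lower at that threshold, with 11.4% and 13% of all genes. A counting interval that excludes 1 was common at this depth. Among members and genes at 1 RPKM or more, 6 members were lower by it without Yap, with 17.1% of all genes, and 0 higher, with 40.8%. By the same rule 6 were higher and 1 was lower with induction, with 37.2% and 45.9% of all genes. Below that level, the interval of Epgn without Yap and that of Egf with induction also excluded 1. The median log2 ratio of the 7 ligands was -0.60 without Yap and 0.69 with induction, beside medians over all genes of 0.05 and -0.04. The median of the 3 receptors was -0.22 without Yap and 0.02 with induction.

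**Figure D2:**
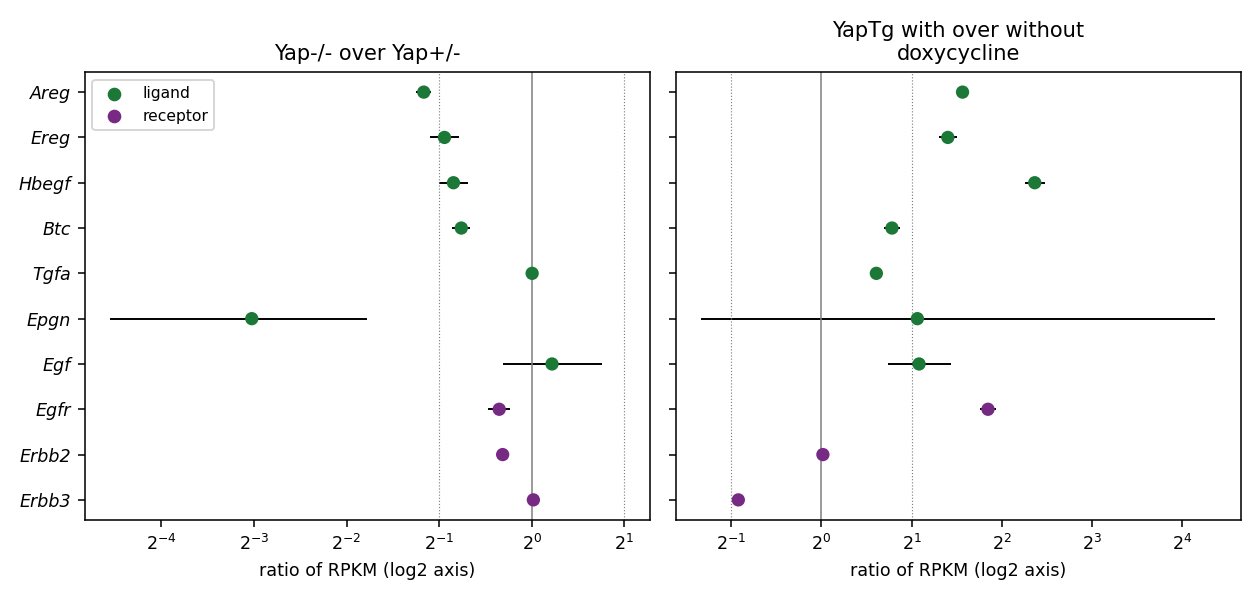
Ratio of RPKM on a log2 axis for each member, Yap-/- over Yap+/- on the left and YapTg with over without doxycycline on the right; bars are 95% counting intervals and dotted lines mark 2-fold. Areg, Ereg, Hbegf and Btc lie left of 1 without Yap and right of 1 with induction, Tgfa lies at 1.00 without Yap, and Egfr and Erbb3 lie on opposite sides with induction.

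For 5 of the 10 members (Areg, Ereg, Hbegf, Btc and Egfr) the library without Yap was the lowest and the induced library the highest of the 4. The share of all genes with this order was not computed, so the count has no background to be read against. The comparisons do not share a library. The Yap+/- and uninduced YapTg libraries, neither of which has full loss or induction, lay close together for the members above 1 RPKM. Areg was 1.25-fold higher (50.9 against 40.9 RPKM) and Ereg 1.37-fold lower (3.69 against 5.05 RPKM) in Yap+/- organoids. None of the 8 members at 1 RPKM or more passed 2-fold between these libraries, against 1.84% of 10883 genes. With so few members, 0 is also near that share. Epgn and Egf were below 1 RPKM and could not be called, with plain ratios of 16.2-fold higher and 2.14-fold lower in Yap+/- organoids. This pair differs in organoid line, so its gaps are not a spread between replicates.

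Added over the genes, ligand transcripts moved more than receptor transcripts. The 7 ligands summed to 39.0 RPKM in Yap-/- organoids against 73.4 RPKM in Yap+/- organoids, and to 176 RPKM with and 63.9 RPKM without doxycycline. The 3 receptors summed to 59.2 RPKM in Yap-/- organoids against 63.6 RPKM in Yap+/- organoids, and to 47.9 RPKM with and 59.7 RPKM without doxycycline. The quotient of summed ligand to receptor RPKM was 0.658 in Yap-/- and 1.16 in Yap+/- organoids, and 3.68 with and 1.07 without doxycycline. Erbb3 and Erbb2 made up most of the receptor sum in every library. The quotient therefore does not give ligand relative to Egfr, the receptor that binds all 7 ligands. Egfr alone was at 8.09 RPKM with and 2.25 RPKM without doxycycline, 3.59-fold higher, and a quotient to it was not computed. Areg set most of the ligand sum, with 58.2% of it in Yap-/- and 69.3% in Yap+/- organoids, and 68.5% with and 63.9% without doxycycline. Without Areg, the other ligands summed to 16.3 RPKM in Yap-/- organoids against 22.6 RPKM in Yap+/- organoids, and to 55.5 RPKM with and 23.1 RPKM without doxycycline. Among receptors, Egfr held 16.9% of the sum with doxycycline and 3.77% without, and Erbb3 held 41.8% with and 63.5% without.

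**Figure D3:**
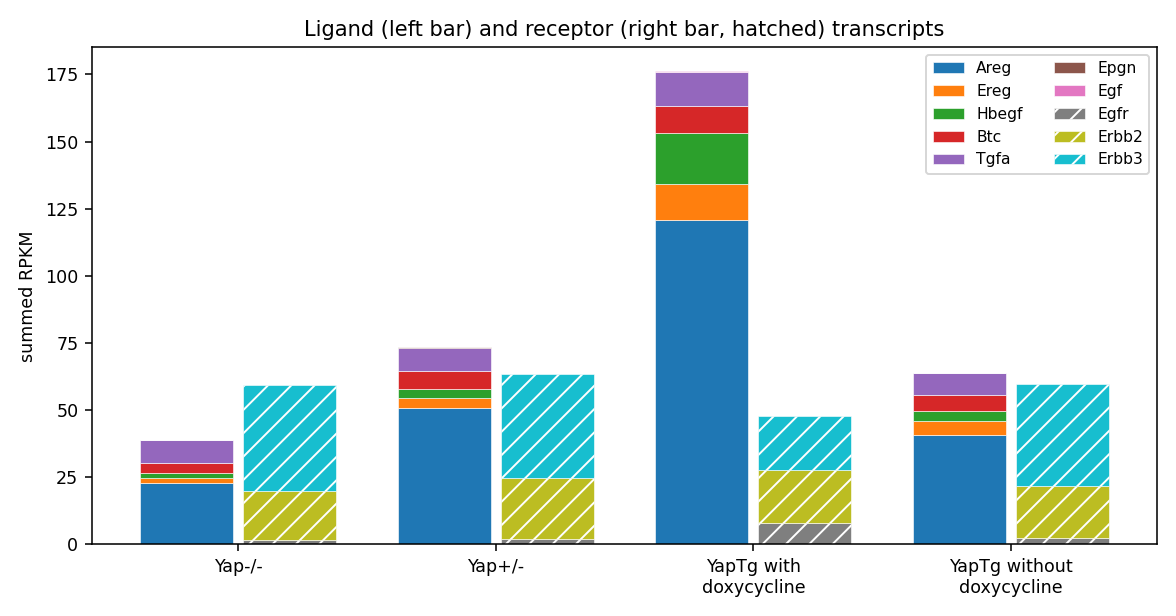
Summed RPKM of the 7 ligand genes (left bar) and the 3 receptor genes (right bar, hatched) in each library, split by gene, with 1 library per group. The ligand bar stands at 176 RPKM in the induced library and at 39.0 RPKM in Yap-/- organoids, while the receptor bars lie between 47.9 and 63.6 RPKM.

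The genes Epgn, Ereg, Areg and Btc stand side by side on mouse chromosome 5, with no other protein-coding gene between them in RefSeq on GRCm38.p6. Their neighbours were read as well, chosen by position alone. Mthfd2l, a mitochondrial folate enzyme next to Epgn, was at 1.53 RPKM in Yap-/- organoids against 1.67 RPKM in Yap+/- organoids, and at 1.96 RPKM with and 1.59 RPKM without doxycycline. Parm1, which encodes a mucin-like membrane protein and is next to Btc, was at 4.29 RPKM in Yap-/- organoids against 6.05 RPKM in Yap+/- organoids, and at 11.8 RPKM with and 7.11 RPKM without doxycycline. Its log2 ratio with induction, 0.66, was close to that of Btc, 0.69. Without Yap it was -0.41, a smaller drop than that of Btc, -0.64. Rchy1, a ubiquitin ligase gene and the next in order, had log2 ratios of 0.13 and -0.12. The other members lie on chromosome 3 (Egf), 6 (Tgfa), 10 (Erbb3), 11 (Egfr and Erbb2) and 18 (Hbegf). Outside the row, Hbegf and Egfr had log2 ratios of 2.09 and 1.48 with induction.

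**Figure D4:**
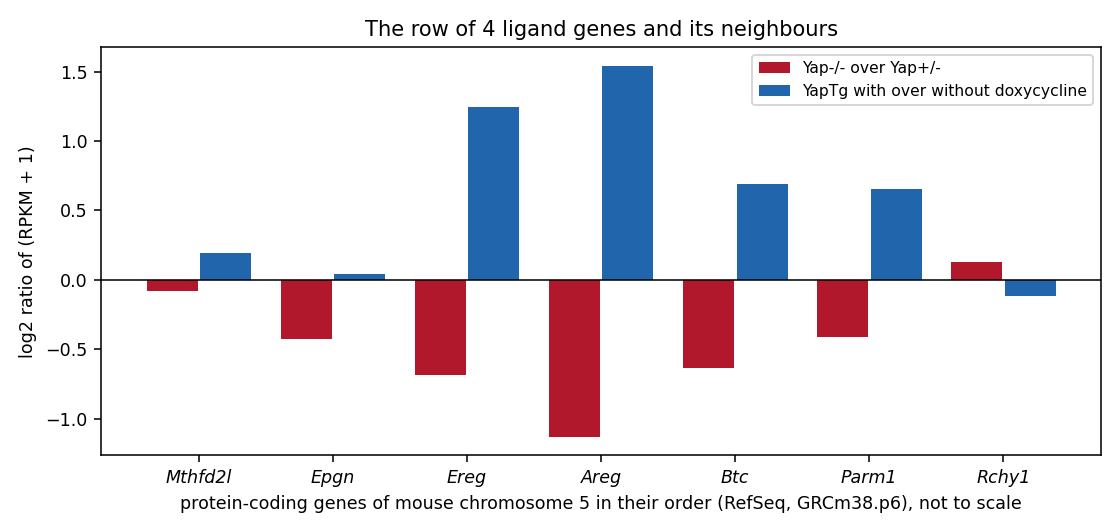
Log2 ratio of RPKM plus 1 for protein-coding genes in their order on chromosome 5, from Mthfd2l to Rchy1, in both comparisons; the spacing is not to scale and each bar rests on 1 library per group. All 6 genes from Mthfd2l to Parm1 lie below 0 without Yap and above 0 with induction, from Mthfd2l at -0.08 and 0.19 and Epgn at -0.42 and 0.04 to Areg, the furthest, at -1.13 and 1.54.

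Erbb4 and the neuregulin genes complete the family. Erbb4, Nrg1 and Nrg2 were listed at 0 in all 4 libraries. Nrg4, a ligand of ERBB4, was the neuregulin above 1 RPKM, at 5.04 RPKM in Yap-/- organoids against 3.77 RPKM in Yap+/- organoids, and at 1.74 RPKM with and 3.23 RPKM without doxycycline. It was 1.34-fold higher without Yap (95% interval 1.25 to 1.44), and its level with induction was 0.540 of that without (0.490 to 0.594), neither past 2-fold.

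Genes that act on the ligands and receptors had few members past 2-fold, about as many as the shares over all genes (0.336% higher and 0.57% lower without Yap, 5.85% and 5.8% with induction). Of 8 genes listed for ligand shedding and trafficking, 7 were at 1 RPKM or more. The list holds Rnf43, which is not known as a shedding gene and passed 2-fold in neither comparison. Of the 7 genes, 0 passed 2-fold without Yap, and with induction 1 did. That gene was Rhbdf1, a catalytically inactive rhomboid that helps mature the shedding protease ADAM17, at 8.93 RPKM with and 3.75 RPKM without doxycycline. Adam17 itself was at 6.56 RPKM with and 7.07 RPKM without doxycycline, and at 5.80 RPKM in Yap-/- organoids against 6.10 RPKM in Yap+/- organoids. Of 12 adaptor and kinase genes downstream of the receptors, 11 had a row, all of them at 1 RPKM or more. By log2 ratio of RPKM plus 1, 0 of these passed 2-fold in either comparison. Among them Plcg1 was at 1.81 RPKM with and 3.65 RPKM without doxycycline, a log2 ratio of -0.72. As a plain ratio Plcg1 was 2.01-fold lower with induction (counting interval 1.84 to 2.20). Of 11 genes that restrain or degrade the receptors, 0 passed 2-fold without Yap. With induction 1 did, Lrig3, a leucine-rich membrane protein of the family that restrains ERBB receptors in its best known member Lrig1. Lrig3 was at 2.79 RPKM with and 10.9 RPKM without doxycycline, and Lrig1 at 16.6 RPKM with and 27.8 RPKM without. Of the same list, Socs2 and Lrig1 had log2 ratios of -0.96 and -0.72 with induction, and Errfi1 and Socs5, which restrain EGFR, 0.85 and 0.66. As a plain ratio Socs2 was 2.39-fold lower. Plcg1, Socs2, Errfi1 and Socs5 were named after their values were seen.

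ERK output and feedback genes are known to be switched on by signalling below the receptors. Of 16 listed genes 15 were at 1 RPKM or more, 7 were at least 2-fold higher with doxycycline and 0 lower, beside 5.85% and 5.8% of all genes. The 3 furthest by log2 ratio of RPKM plus 1 were Ier3 (67.8 RPKM with and 3.72 RPKM without doxycycline), Fosl1 (13.8 RPKM with and 1.21 RPKM without) and Phlda1 (126 RPKM with and 30.6 RPKM without). The ETS factor genes Etv4 and Etv5, also outputs of ERK, were lower, at 4.10 RPKM with and 9.19 RPKM without, and at 1.41 RPKM with and 3.21 RPKM without doxycycline, below the 2-fold rule and named after their values were seen. Without Yap, 0 of the 15 passed 2-fold, and the median log2 ratio over the 16 genes was -0.08 without Yap and 0.76 with induction.

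**Figure D5:**
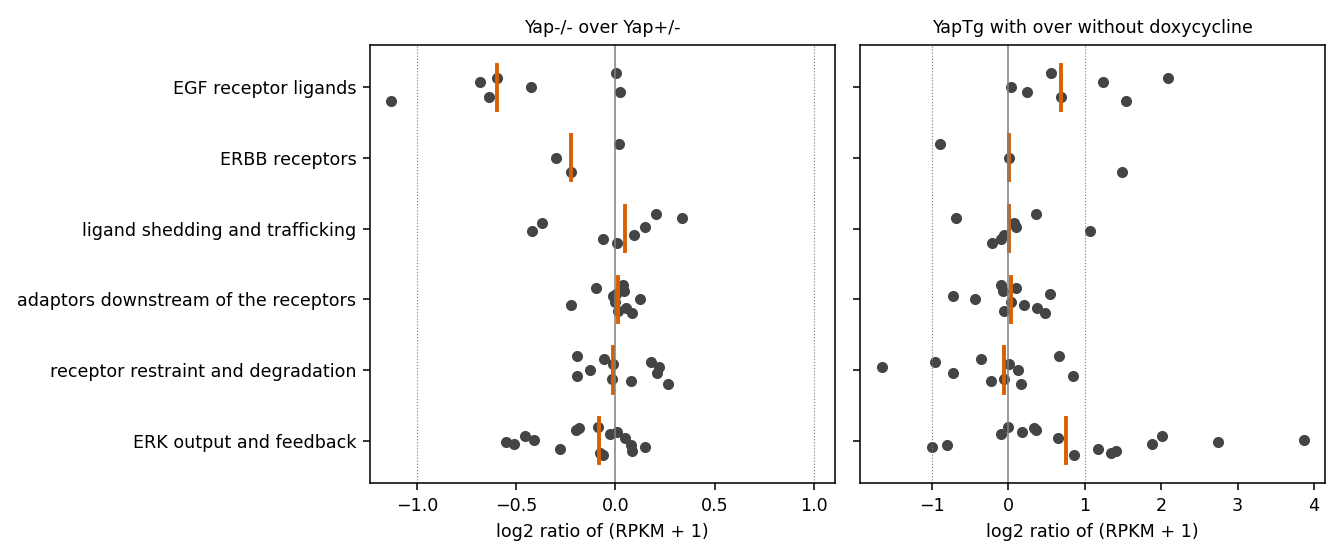
Log2 ratio of RPKM plus 1 for each gene of 6 lists (points, 1 library per group) with the list median (orange line), Yap-/- over Yap+/- on the left and YapTg with over without doxycycline on the right; dotted lines mark 2-fold. The ligand median lies at -0.60 on the left and 0.69 on the right, and the adaptor list has no gene past 2-fold in either panel.

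Profiles over the 4 libraries were compared as log2 of RPKM plus 1, centred on each gene's mean and scaled to unit length, among 7989 genes that reached 5 RPKM. This measure reads shape and not size, and 4 points leave much room for likeness. The 3 genes nearest to Areg were Cxcl16 (distance 0.0157), Gm14446 (0.0301) and Car13 (0.0381). Cxcl16, a membrane-bound chemokine gene, was at 3.99 RPKM in Yap-/- organoids against 11.8 RPKM in Yap+/- organoids, and at 36.7 RPKM with and 9.16 RPKM without doxycycline. The 3 nearest to Egfr were Eif2s2 (0.00789), Phldb2 (0.0118) and Med13 (0.0119). The nearest gene to Ereg was Utp18 (0.0109), to Hbegf Osbp (0.00160), to Tgfa Cdipt (0.0122), to Erbb2 Rab11b (0.0133) and to Erbb3 Hibch (0.00236). Osbp, at 29.5 RPKM with and 25.6 RPKM without doxycycline, shows that a gene with a small ratio can share the shape of Hbegf.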

How the data were processed

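RNA-seq of 4 organoid libraries was used, 1 per group, grouped by the genotype and source labels. Per the labels, libraries were made with an Illumina TruSeq RNA kit. Per the submitters' processing notes, CASAVA 1.8, FastQC and TopHat 1.4.1 were used with the mm9 build. The counter, annotation, strand setting and filters were not given in the sources used here. Deposited values were identified as RPKM from their behaviour, since no header names the unit, and used unchanged.

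Library totals were solved from the RPKM and GENCODE M21 (GRCm38) gene lengths. For each gene, the length nearest to the annotated one that made its reads whole (within 0.005) in every library was taken. It was found for 17377 of 17378 genes above 0. For Hbegf, Btc, Tgfa and Egf a shorter length also made reads whole, so their intervals may be wider. The recovery was tested on simulated data. A 2 kb gene at 1 RPKM had from 89.9 to 150.5 reads per library. Since PCR copies are not independent molecules, intervals cover counting error only.

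Log2 ratios used RPKM plus a pseudocount of 1, which understates low genes; printed folds are plain ratios of RPKM. The members, gene lists and motifs were chosen with earlier results of these data known. Genes named were the members, Yap1, up to 3 per list and direction past 2-fold, the nearest profiles, chromosome neighbours and markers. Also named, after their values were seen, were Adam17, Rnf43, Lrig1, Nrg4, Plcg1, Socs2, Errfi1, Socs5, Etv4 and Etv5. Alternatives changed the pseudocount, scaling, floor, fold threshold, call rule and gene length. Python 3.11.15, numpy 2.4.6, scipy 1.17.1 and pandas 2.3.3 were used.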

Additional observations from a re-analysis of the deposited data

How the results depend on the processing

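No replicate could be left out, and no paired analysis was possible because each group has 1 library. Areg stayed the 1 member past 2-fold without Yap under both scalings, both pseudocounts and both floors; 4 members passed at a 1.5-fold threshold and 6 of those at 1 RPKM or more had a counting interval that excludes 1. With induction 4 members passed under both scalings, both floors and a pseudocount of 0.1, and 2 did with a pseudocount of 5 (Areg and Hbegf). At a 1.5-fold threshold 6 members passed, and 7 of the members at 1 RPKM or more had an interval that excludes 1. The median log2 ratio of the 10 members was -0.36 without Yap and 0.62 with induction. It was -0.54 and 0.79 with a pseudocount of 0.1, -0.18 and 0.44 with a pseudocount of 5, and -0.45 and 0.97 over the members whose mean over the libraries is at 1 RPKM or more. No called member changed sign. Over all genes, the 97 calls without Yap became 178 with a pseudocount of 0.1, 39 with 5, 312 at 1.5-fold and 6200 by interval. The 1294 calls with induction became 673 with a pseudocount of 5, 2714 at 1.5-fold and 9238 by interval. Intervals of all members in both comparisons kept their side of 1 with the shortest fitting length. Depth limits Epgn, with 2 to 41 reads per library.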
